A study of Homo sapiens with 6 samples.

Results

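Human chromosome 19 carries the densest collection of C2H2 zinc finger genes in the genome. The genes described here are the protein-coding genes on chromosome 19 whose symbol is ZNF followed by digits and at most a single further letter. This rule took 246 of the 58676 genes of the table and used no expression value. RNA sequencing compared DCIS.COM cells, an established basal-like breast cell line that forms lesions resembling ductal carcinoma in situ (DCIS), in 2 groups of 3 samples, each grown in its own flask. The NS control group had received a PLKO.1 lentiviral vector with a non-silencing shRNA, and the BCL9 KD group had received a PLKO.1 vector with an shRNA against BCL9, a coactivator of β-catenin that the study also linked to STAT3. Each group was a transduced population of a single line, so the comparison describes this line, this knockdown and these flasks.

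A C2H2 zinc finger is a short protein module folded around a zinc ion, and a string of them reads a stretch of DNA sequence. Most chromosome 19 members also carry a KRAB domain, which recruits TRIM28 (KAP1) and, through it, the histone methyltransferase SETDB1 and other silencing proteins. KRAB zinc finger proteins are best known for silencing transposable elements, and their genes arose by repeated local duplication, so that neighbours along the chromosome are often close relatives.

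The repeated module is visible in the coding sequence. Below is a complete repeat from each of the 3 genes ZNF146, ZNF226 and ZNF264, whose values are described further on. Capitals mark the 15-base linker that joins a finger to the next, and the lower-case stretch between the linkers is the finger itself. The positions are in GRCh37, on the plus strand, inside coding exons: chr19:36727625-36727723 for ZNF146, chr19:44680571-44680669 for ZNF226 and chr19:57723561-57723659 for ZNF264.
ZNF146: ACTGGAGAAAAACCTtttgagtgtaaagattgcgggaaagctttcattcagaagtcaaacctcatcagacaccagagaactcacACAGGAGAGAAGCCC
ZNF226: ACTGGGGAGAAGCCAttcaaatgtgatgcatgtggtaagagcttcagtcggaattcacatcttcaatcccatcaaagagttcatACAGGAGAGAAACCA
ZNF264: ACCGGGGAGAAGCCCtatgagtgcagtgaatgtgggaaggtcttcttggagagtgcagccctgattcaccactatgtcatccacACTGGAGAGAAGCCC
Over these 99 bases, ZNF146 and ZNF226 were identical at 63 positions, ZNF146 and ZNF264 at 64, and ZNF226 and ZNF264 at 58. The linker could be counted in the coding sequence of 243 members. The median was 6 linkers a gene, the highest count was 24, in ZNF850, and 33 members had none that matched. Of 1209 neighbouring linker pairs, 768 (63.5%) lay exactly 84 bases apart, the length of a finger with its linker. How the counting treated reads that fit several places is not given in the sources used here, and how many reads fit several members was not measured. Values of close pairs such as ZNF587 and ZNF587B or ZNF780A and ZNF780B are therefore uncertain, and 0 reads does not show that a gene was not expressed. In addition, 180 of the 246 members overlap another gene of the table on either strand, and the strand setting of the counting is not given in the sources used here.

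The samples held between 15222452 and 22712638 reads on genes in NS control and between 15665714 and 26949026 in BCL9 KD. BCL9 itself measured 6.25, 6.24 and 5.34 FPKM (fragments counted on a gene, scaled by gene length and sequencing depth) in NS control and 2.86, 2.78 and 2.59 FPKM in BCL9 KD. Its log2 fold change was −0.99 ± 0.09 (SE), with an adjusted p of 0.00773 by limma. This call was lost without NS control replicate 2 (adjusted p 0.0636), without BCL9 KD replicate 2 (0.0600) or 3 (0.0700) and with the replicate number as a block (0.0656), with log2 fold changes between −0.999 and −0.955. Epithelial markers were high, with KRT5 between 379 and 436 FPKM and EPCAM between 98.2 and 114 FPKM, while the 3 immune markers reached at most 0.0583 FPKM (CD68). Of the 4 stromal markers, COL1A1 was at 0.484 to 0.665 FPKM and PDGFRB at up to 0.103 FPKM, with COL1A2 and LUM at or near 0. Of the endothelial markers, PECAM1 was present at 1.72 to 3.91 FPKM and VWF reached 0.0307 FPKM. NS control replicate 1 stood apart from the other 5 samples in transcripts of low GC content, and the main counts below, with the values it moves most, are therefore given with and without it.

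Most zinc finger genes of chromosome 19 were listed at low levels or at 0 in these cells. Of the 246 members, 81 had 0 reads in all 6 samples, 51 had reads but a mean below 0.5 FPKM, and 114 (46.3%) reached the mean of 0.5 FPKM that a gene needed for testing. Zinc finger genes named by the same rule on other chromosomes reached it in 194 of 263 cases (73.8%), and the other protein-coding genes of chromosome 19 in 611 of 1218 (50.2%). It was reached by 56.2% of all protein-coding genes and 23.4% of all genes listed. The tested members had a median level of 1.68 FPKM, against 4.65 FPKM over all 13745 tested genes and 9.56 FPKM over the tested chromosome 19 genes that are no members. The tested member with the fewest reads had a mean of 21.5 a sample, while a long untested one, ZNF555, had 69 to 98 reads. RNA from a culture gives an average over its cells, so fewer expressing cells and less RNA per cell cannot be told apart.

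Detection differed with the position along the chromosome. Members were sorted by their start in the table, and a new cluster was begun where the next start lay more than 1 Mb away. This gave 9 clusters of at least 5 members, named A to I from the short-arm end to the long-arm end, with 11 members scattered between them. Cluster C, between 11.48 and 12.64 Mb, had 18 of its 26 members at 0 reads, and cluster D, between 19.67 and 24.13 Mb next to the centromere, had 28 of 36 at 0 reads. Only 3 members of cluster C and 4 of cluster D were tested. By contrast, no member of cluster G (24 genes, 43.53 to 45.08 Mb) was at 0 reads, and 20 of them (83.3%) were tested. Cluster I, the largest, had 40 of 59 members tested (55.48 to 58.48 Mb), cluster H 17 of 38 (51.57 to 53.58 Mb), cluster F 10 of 26 (36.18 to 37.82 Mb) and cluster B 8 of 16 (7.07 to 9.79 Mb). Clusters A and E had 5 members each, of which 3 and 2 were tested.

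**Figure D1:**
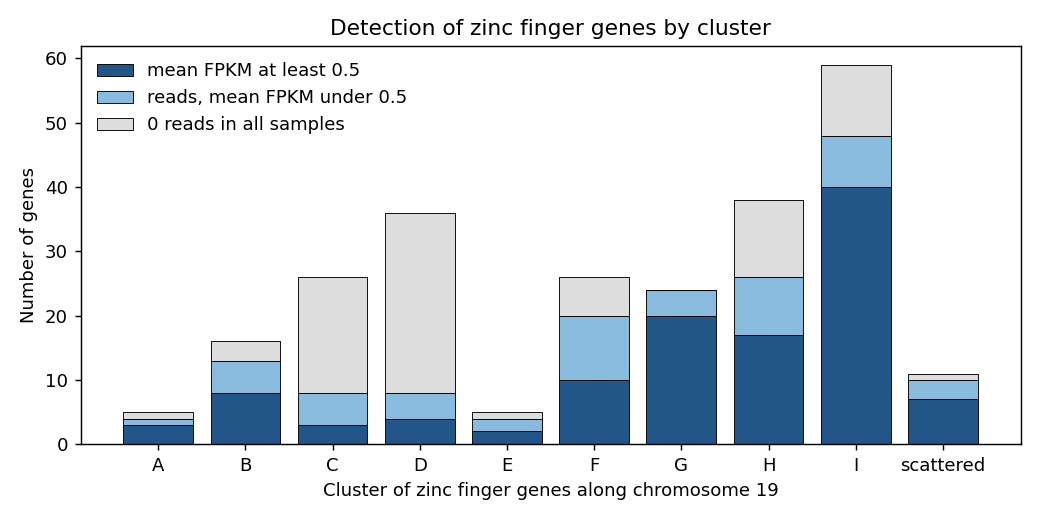
Stacked bars show the number of zinc finger genes (vertical axis) in each cluster from A to I and among the scattered genes (horizontal axis), split by detection over the 6 samples. Clusters C and D, with 18 of 26 and 28 of 36 genes at 0 reads, are mostly grey, whereas cluster G has no gene at 0 reads.

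Only 16 members reached 5 FPKM, and 8 of these lay in cluster I. The highest was ZNF146 in cluster F, which encodes a protein made almost entirely of zinc fingers, at a mean of 29.8 FPKM. It was followed by ZNF581 (15.7 FPKM) and ZNF787 (15.1 FPKM) in cluster I and by ZNF121 (9.76 FPKM) and ZNF561 (8.52 FPKM) in cluster B. Of these 16 members 9 had no matching linker, against 33 of all 243 members counted, while ZNF45 had 13 and ZNF121 had 6. The tested members had a median of 4 linkers and the untested members a median of 6. ZNF850, with the most linkers of all, averaged only 0.0198 FPKM. Among the 114 tested members, more linkers went with a lower transcript GC content (Spearman rho −0.616 across genes, which are not independent).

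The promoters of the members also differed by cluster. RefSeq promoters (GRCh38.p14, from 250 bases before to 50 bases after a gene's start) were matched for 213 of the 246 members. Some genes, such as ZNF112, have more than 1 listed start. In the counts below each gene counts once, as having a pattern if any of its promoters has it. Genes with more listed starts thus had more room for a match. The 250 bases before the start are printed below for 5 members of clusters F, G and I that are described further on, because a 6-letter run recurs in them. Capitals mark TGTAGT or its reverse complement ACTACA. ZNF146 is at chr19:36214856-36215105 (plus strand), ZNF260 at chr19:36528272-36528521 (minus strand), ZNF226 at chr19:44164850-44165099 (plus strand), ZNF264 at chr19:57191250-57191499 (plus strand) and ZNF805 at chr19:57240382-57240631 (plus strand).
ZNF146: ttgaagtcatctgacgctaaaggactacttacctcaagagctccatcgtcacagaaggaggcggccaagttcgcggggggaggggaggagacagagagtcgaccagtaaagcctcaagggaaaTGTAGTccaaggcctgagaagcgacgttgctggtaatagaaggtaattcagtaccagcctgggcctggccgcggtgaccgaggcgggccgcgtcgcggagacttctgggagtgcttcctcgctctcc
ZNF260: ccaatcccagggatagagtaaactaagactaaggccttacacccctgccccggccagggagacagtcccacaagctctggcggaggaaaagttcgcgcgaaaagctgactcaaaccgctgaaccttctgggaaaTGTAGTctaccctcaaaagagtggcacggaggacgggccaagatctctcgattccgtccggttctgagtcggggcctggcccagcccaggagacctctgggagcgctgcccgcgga
ZNF226: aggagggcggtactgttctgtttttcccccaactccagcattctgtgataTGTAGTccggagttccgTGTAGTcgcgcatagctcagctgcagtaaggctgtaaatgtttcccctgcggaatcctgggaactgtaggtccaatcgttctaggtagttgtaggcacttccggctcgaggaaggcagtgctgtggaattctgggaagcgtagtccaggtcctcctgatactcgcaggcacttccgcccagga
ZNF264: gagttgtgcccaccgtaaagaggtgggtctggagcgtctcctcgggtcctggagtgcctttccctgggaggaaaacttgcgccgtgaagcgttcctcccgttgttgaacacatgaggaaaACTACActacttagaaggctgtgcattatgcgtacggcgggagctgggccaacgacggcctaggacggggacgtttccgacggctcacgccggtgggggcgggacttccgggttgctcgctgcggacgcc
ZNF805: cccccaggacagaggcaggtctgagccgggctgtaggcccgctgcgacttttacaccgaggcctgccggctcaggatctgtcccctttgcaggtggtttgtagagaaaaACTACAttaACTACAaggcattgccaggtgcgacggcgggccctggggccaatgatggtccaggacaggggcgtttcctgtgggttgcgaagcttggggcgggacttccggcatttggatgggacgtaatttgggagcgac
TGTAGT was chosen for counting after it was seen in these sequences and in those of ZNF112 and ZNF587B, so counts that include these 7 promoters are in part fixed by that choice. Searched on both strands, it was present in 63 of the 213 member promoters (29.6%), against 10.3% of the promoters of all 27305 genes, 8.23% of those of other protein-coding genes of chromosome 19 and 15.6% of those of zinc finger genes on other chromosomes. It followed the clusters. It was in 14 of 24 promoters of cluster F (58.3%), 12 of 20 of cluster G (60.0%) and 30 of 54 of cluster I (55.6%), but in 1 of 32 of cluster H and in none of the 24 of cluster C or the 27 of cluster D. Without the 7 promoters it was in 56 of 206 member promoters (27.2%), in 12 of 22 of cluster F, 10 of 18 of cluster G and 27 of 51 of cluster I. Again without them, 38.1% of tested members had it and 10.5% of members at 0 reads. Within clusters F, G and I pooled, 32 of 49 of these members with the letters were tested (65.3%) and 25 of 42 without them (59.5%). In all other places pooled, which include clusters C and D, 5 of 7 members with the letters were tested (71.4%) and 35 of 108 without them (32.4%).

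A second pattern, TTCNNNGAA, the general form of a STAT recognition site, was searched because the study concerns STAT3. It was in 15 of 20 promoters of cluster G, against 39 of the 213 member promoters (18.3%) and 9.38% of all promoters. In 13 of these cluster G genes the letters were the same, TTCTGGGAA or its reverse complement, and a copy can be read in the ZNF226 promoter above as ttctgggaa. The last pattern searched was CTTTGAT, the core of the TCF/LEF recognition site through which β-catenin acts. It was in 4 of the 213 member promoters (1.88%), against 3.18% of all promoters. All 3 patterns were searched on both strands and counted on their own, and none of them can overlap another by more than end letters. They can still stand side by side, as ttctgggaaaTGTAGT in the ZNF260 promoter above. Their counts are therefore not independent, and how often they lie together was not counted. These are matches of letters, and binding at these promoters was not examined here. The study mapped BCL9 and phosphorylated STAT3 on the chromatin of DCIS.COM cells by ChIP-exo, and those data were not used here. It reported shared peaks on promoters, whereas BCL9 did not appear to be present at STAT3 motifs.

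The NS control replicate 1 library was low in these genes as a group. To compare samples, each gene's log2(FPKM + 0.5) was taken relative to its mean over the 6 samples. The median of this relative level over the 114 tested members was −0.18 in NS control replicate 1, 0.0043 in replicate 2 and 0.04 in replicate 3. In BCL9 KD it was 0.10, −0.02 and 0.03. NS control replicate 1 was thus the lowest sample for the members as a group, and the other 5 samples ran from −0.02 to 0.10. Over all tested genes its median was −0.06. It was the lowest of the 6 samples in 63 of 114 members (55.3%), compared with 45.4% of tested zinc finger genes on other chromosomes, 35.8% of all tested genes and 7.04% of tested chromosome 19 genes that are no members.

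**Figure D2:**
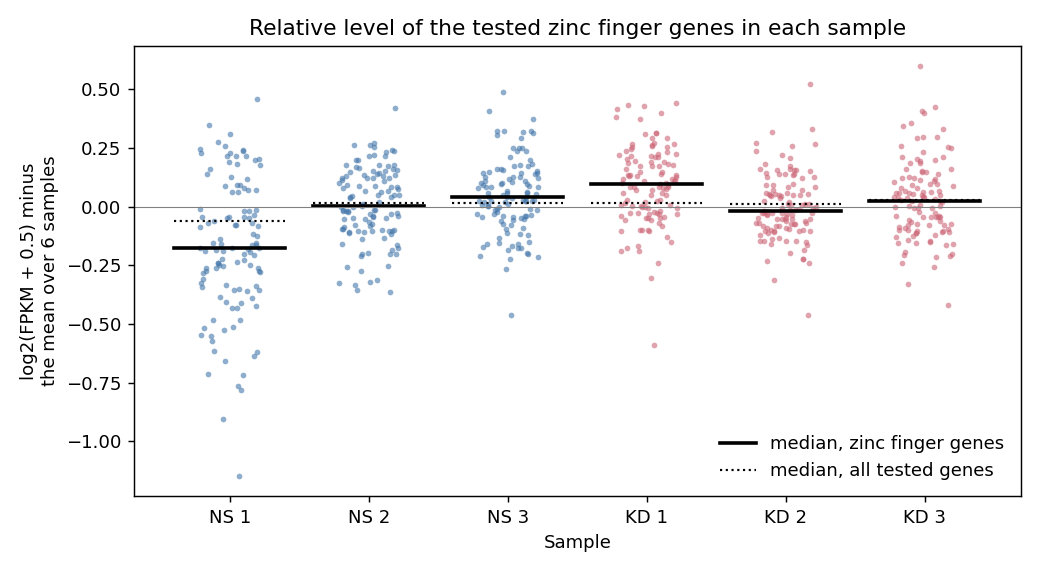
Each point is a tested zinc finger gene, and the vertical axis gives its log2(FPKM + 0.5) in a sample minus its mean over the 6 samples. The solid bar for NS 1 (−0.18) lies below its dotted bar for all tested genes (−0.06), and the solid bars of the other 5 samples lie between −0.02 and 0.10.

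The departure followed the GC content of the transcripts. Members had transcripts of lower GC content (median 47.4%) than the other chromosome 19 genes (60.7%). They were closer to all tested genes (49.2%) and to the zinc finger genes on other chromosomes (48.9%), in which NS control replicate 1 was the lowest sample in 35.8% and 45.4% of cases, beside 55.3% of members. The difference between these shares was not tested. Among members, the relative level in NS control replicate 1 was higher at higher GC content (Spearman rho 0.659 across 114 genes), and over all tested genes with a GC value rho was 0.550. Among members rho was 0.164 and −0.493 in NS control replicates 2 and 3 and −0.476, −0.185 and −0.290 in BCL9 KD replicates 1 to 3. Levels are relative to the mean over the 6 samples, so a trend in 1 sample brings opposite ones in others. All tested genes were also split into 4 equal bins of GC content. In the lowest bin (up to 43.4%), the median relative level of the 15 members in NS control replicate 1 was −0.51, and it was their lowest sample in 14 of 15 cases. Over all tested genes of that bin the median was −0.38, with 74.6% lowest there. In the second bin, which held 53 members, their median was −0.25 and 39 (73.6%) were lowest there, against −0.10 and 41.1% of all tested genes. In the highest bin (over 56.5%), the median of the 21 members was 0.13, and it was the lowest sample in 1 of 21. ZNF260, the tested member with the lowest GC content (37.1%), and ZNF146 (42.7%) had SDs of 0.826 and 11.4 FPKM within NS control and of 0.365 and 1.38 FPKM within BCL9 KD. A smooth correction for GC content fitted on all genes left the members' median in NS control replicate 1 at −0.18, with 65 of 114 members lowest there, and over all tested genes it was then −0.08. What sets this library apart was not tested.

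**Figure D3:**
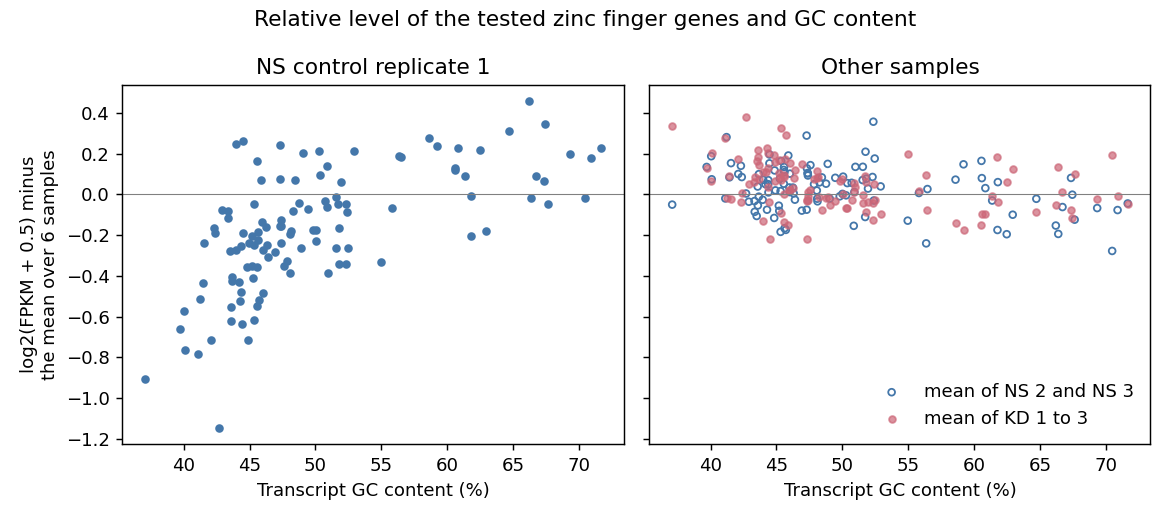
Both panels plot transcript GC content (%) of the 114 tested zinc finger genes against their log2(FPKM + 0.5) minus the mean over 6 samples, on the left for NS control replicate 1 and on the right for the mean of the other NS samples and of the KD samples. On the left the points climb with GC content (rho 0.659), with 14 of the 15 genes of lowest GC content having their lowest level in this library.

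The comparison of BCL9 KD with NS control asked which genes depend on BCL9 in these cells. Among the zinc finger genes of chromosome 19 a single member, ZNF226, passed an adjusted p of 0.05 by limma, and it was higher in BCL9 KD. This is 0.877% of the 114 tested members, against 5.87% of all tested genes. At an unadjusted p under 0.05 there were 15 members (13.2%), against 27.5% of all tested genes. The 3 BCL9 KD values lay above all 3 NS control values in 18 members (15.8%, against 17.8% of all tested genes) and below them in 11 members (9.65%, against 16.4%). No member differed by as much as 1 on the log2 scale, against 1.51% of all tested genes, and 5 differed by at least 0.5 (4.39%, against 12.2%). Without NS control replicate 1, ZNF112 (0.51) was the only one of these 5 still at 0.5 or more, and ZNF460 reached that size on the lower side. The share of all tested genes in that fit was not counted. The log2 fold changes of members ranged from −0.44 (ZNF460) to 0.76 (ZNF146), with a median of 0.07 against 0.04 over all tested genes. Zinc finger genes on other chromosomes were also below all tested genes in each of these shares. Of the 194 tested, 1.55% were called and 16.5% had an unadjusted p under 0.05. Their groups did not overlap in 9.79% with higher values and in 12.4% with lower values. A difference of at least 0.5 was found in 7.73% of them and of at least 1 in 0%. The members' low FPKM goes with their counts, and its part in them was not tested.

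Without NS control replicate 1 the members were split about evenly between higher and lower values. With all samples, 68 of 114 members had a log2 fold change above 0 (59.6%, against 55.4% of all tested genes), and without it 58 did (50.9%, against 50.4%), with a median of 0.0034 against 0.0028 over all tested genes. ZNF226 was then again the only member called, where 5.25% of all tested genes were called. The groups did not overlap, with higher values in BCL9 KD, in 20 members (17.5%, against 22.9%) and with lower values in 19 (16.7%, against 23.4%). With the GC correction on all 6 samples, 2 members were called, ZNF226 and ZNF587B, against 12.0% of all tested genes. A fit of the reads recovered from the FPKM values with voom called 3 members, ZNF226, ZNF112 and ZNF274, against 10.2% of all tested genes.

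By cluster, the members of F, G and H were mostly above 0 and those of I were spread around 0. Over all tested genes 55.4% were above 0. In the lowest bin of GC content (up to 43.4%) 2661 of 3395 genes were, with a median of 0.21. In the second bin (up to 49.2%) 1890 of 3394 genes were, with a median of 0.04. Without NS control replicate 1 these counts were 2065 and 1618. The median log2 fold change was 0.27 in cluster F (9 of 10 members above 0), 0.16 in cluster G (19 of 20), 0.13 in cluster H (14 of 17) and −0.03 in cluster I (16 of 40). These same clusters differed in NS control replicate 1, which was the lowest sample in 9 of 10 members of F, 15 of 20 of G and 16 of 17 of H, but in 12 of 40 of I. Without that library the medians were 0.19 in F (8 of 10 above 0), 0.08 in G (13 of 20), 0.09 in H (10 of 17) and −0.05 in I (18 of 40). The median GC content of the tested members was 43.7% in F, 45.6% in G, 44.9% in H and 51.7% in I, and with the GC correction the medians of the log2 fold change were 0.22, 0.15, 0.19 and 0.01. With voom they were 0.47, 0.25, 0.27 and −0.05. In the remaining clusters few members were tested, and the medians were −0.05 in B (8 members), −0.06 in both C (3) and D (4), −0.08 in A (3) and 0.15 in E (2). Without NS control replicate 1 they were −0.10 in B, −0.10 in C, −0.18 in D, −0.07 in A and 0.08 in E.

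**Figure D4:**
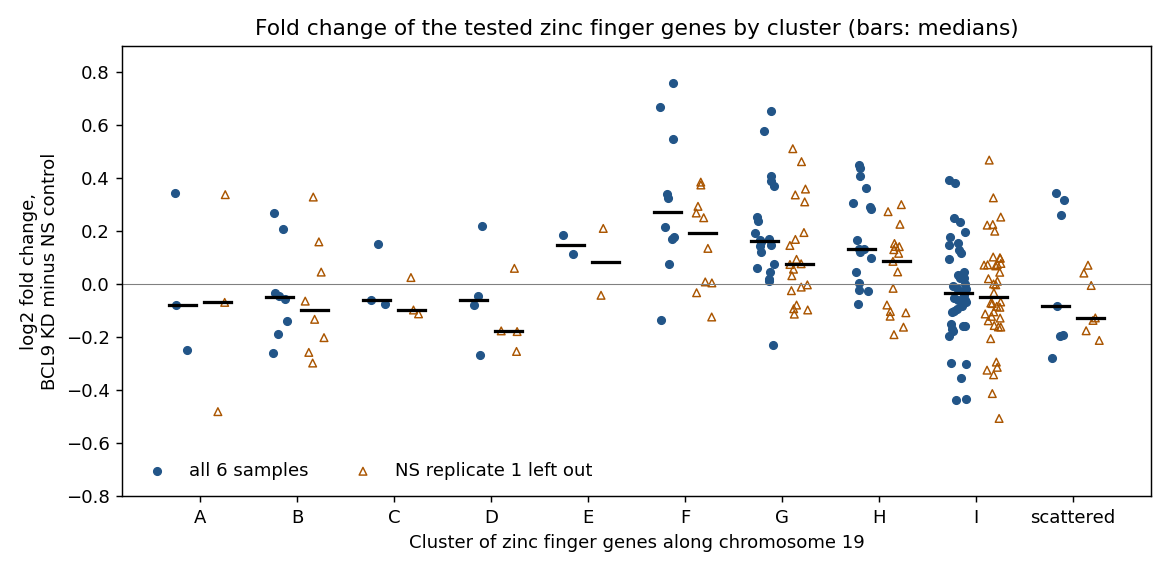
The vertical axis is the log2 fold change (BCL9 KD minus NS control, on log2(FPKM + 0.5)) of each tested zinc finger gene, by cluster along the horizontal axis, with filled circles for all 6 samples, open triangles for the fit without NS control replicate 1, and bars at the medians. The medians of F, G and H are 0.27, 0.16 and 0.13 with all samples and 0.19, 0.08 and 0.09 without that sample.

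ZNF226, a KRAB zinc finger gene of cluster G, measured 1.48, 1.96 and 2.05 FPKM in NS control and 2.87, 2.91 and 3.09 FPKM in BCL9 KD. These values rested on 216 to 275 reads in NS control and on 335 to 543 reads in BCL9 KD. The groups did not overlap, and all 3 BCL9 KD values lay close together. The ratio of the means was 1.62, and the log2 fold change was 0.58 ± 0.12 (SE), with an adjusted p of 0.0466 by limma. Without NS control replicate 1 the log2 fold change was 0.46 and the adjusted p 0.0442, and without NS control replicate 3 they were 0.65 and 0.0384. The call was lost without NS control replicate 2 (adjusted p 0.144) and without BCL9 KD replicate 1, 2 or 3 (adjusted p 0.0777, 0.188 and 0.197), where the log2 fold change stayed between 0.55 and 0.62. It was also lost with no filter on low values (0.122), no mean-variance trend (0.0563), the replicate block (0.105) and the block with the GC correction (0.0700), 8 of 18 alternatives in all. An exact two-sided permutation test gave p = 0.1, the smallest that 3 against 3 samples allow. ZNF226 overlaps no other gene of the table.

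Other members of cluster G had higher values in BCL9 KD without passing the test. ZNF112 measured 0.561, 0.771 and 1.11 FPKM in NS control and 1.26, 1.46 and 1.96 FPKM in BCL9 KD. The groups did not overlap, and the log2 fold change was 0.66 ± 0.20 (SE), with an adjusted p of 0.0988. It was called by voom (adjusted p 0.0467) and without NS control replicate 3 (adjusted p 0.0487). It overlaps CTC-512J12.6. ZNF221, a KRAB zinc finger gene, had 0.745, 0.764 and 1.21 FPKM in NS control and 1.42, 1.34 and 1.22 FPKM in BCL9 KD, and the highest control value came close to the lowest BCL9 KD value. ZNF428, which had no matching linker, had 5.69, 5.40 and 6.27 FPKM in NS control and 6.62, 7.33 and 9.06 FPKM in BCL9 KD, with an adjusted p of 0.115. ZNF428 overlaps SRRM5. ZNF45, the next most abundant gene of the cluster, had 13 linkers and a log2 fold change of 0.06 ± 0.10 (SE), which ran from −0.002 to 0.12 as single samples were left out.

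Cluster F held the 2 largest differences in the fit of all 6 samples, and both were smaller without NS control replicate 1, where ZNF112 of cluster G (0.51) and ZNF460 of cluster I (−0.51) had the largest. ZNF112 also had the largest with voom (1.00), and with the GC correction it (0.64) and ZNF226 (0.57) exceeded ZNF260 of cluster F. ZNF146 measured 12.3, 22.3 and 35.0 FPKM in NS control and 37.3, 34.8 and 37.1 FPKM in BCL9 KD. The control samples were far apart, and the highest of them exceeded the lowest BCL9 KD sample. The log2 fold change was 0.76 ± 0.33 (SE), with an adjusted p of 0.190, and was 0.38 without NS control replicate 1. Without NS control replicate 3 it was 1.11, with an adjusted p of 0.0394. ZNF260, a neighbour that likewise consists almost wholly of fingers, measured 1.11, 2.11 and 2.75 FPKM in NS control and 3.57, 2.90 and 3.47 FPKM in BCL9 KD. Its groups did not overlap, with NS control replicate 1 the lowest, and the log2 fold change was 0.67 ± 0.25 (SE) with an adjusted p of 0.141 and 0.39 without that sample. ZNF567 had 0.522, 0.868 and 1.70 FPKM in NS control and 1.87, 1.44 and 1.59 FPKM in BCL9 KD, again with the control samples apart and the groups overlapping, and its log2 fold change was 0.55 (adjusted p 0.242). This was 0.29 without NS control replicate 1 (adjusted p 0.427) and 0.85 without NS control replicate 3, where it was called (adjusted p 0.0430). It lies outside the naming rule and is given because it is the fifth member with a difference of at least 0.5 with all samples.

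In cluster H, ZNF615 measured 0.557, 0.838 and 1.06 FPKM in NS control and 1.13, 1.27 and 1.45 FPKM in BCL9 KD. The groups did not overlap, and the log2 fold change was 0.45 ± 0.18 (SE), with an adjusted p of 0.162. ZNF614, its neighbour, had 2.02, 2.60 and 3.58 FPKM in NS control and 4.31, 3.52 and 3.62 FPKM in BCL9 KD, overlapping in 1 pair of samples. Without NS control replicate 3 ZNF614 had an adjusted p of 0.0441, and with all samples 0.175. Its log2 fold change was 0.44 with all samples, 0.62 in that fit and 0.27 without NS control replicate 1 (adjusted p 0.279). ZNF761, the other abundant gene of the cluster, had a log2 fold change of 0.29 and an adjusted p of 0.301, with 0.15 without NS control replicate 1 and 0.45 without NS control replicate 3.

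**Figure D5:**
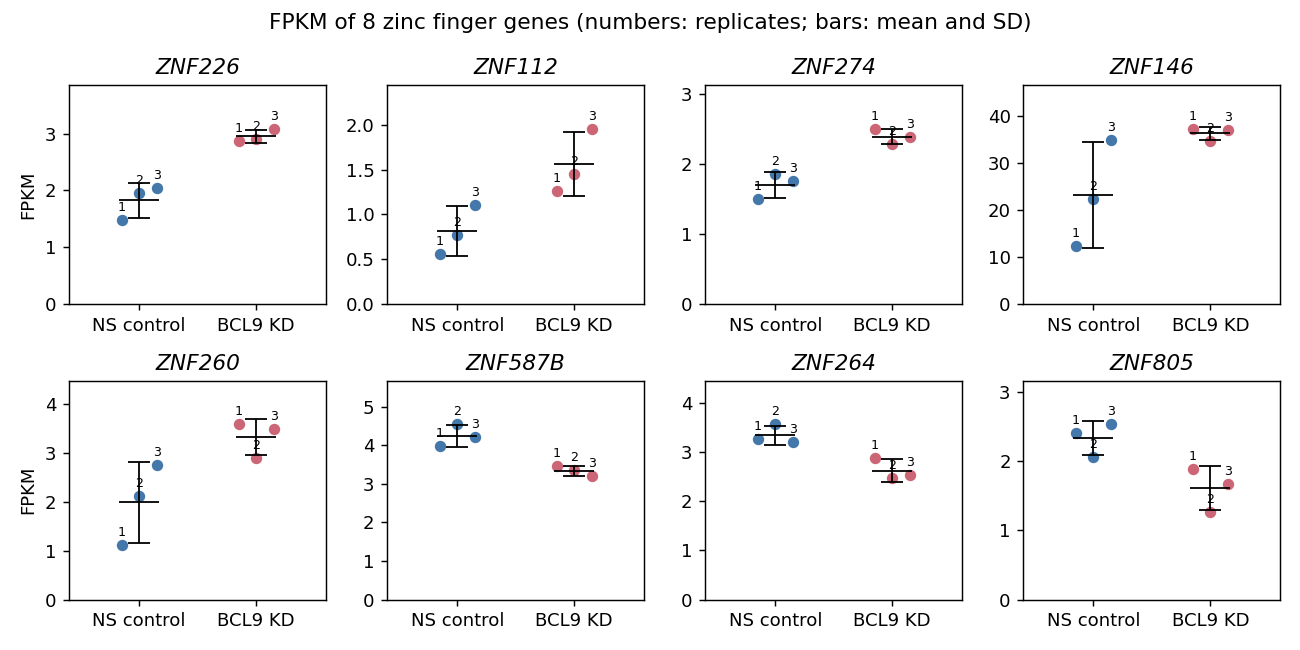
Each panel plots the FPKM of a zinc finger gene in the 3 NS control and 3 BCL9 KD samples, numbered by replicate, with the mean and SD in black and an axis that starts at 0. ZNF226, ZNF112, ZNF274 and ZNF260 have all BCL9 KD points above the NS points, ZNF587B, ZNF264 and ZNF805 have all of them below, and in ZNF146 the NS samples run from 12.3 to 35.0.

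Cluster I held members on both sides. ZNF274, a KRAB zinc finger gene whose protein is known to bind the 3′ ends of other zinc finger genes and to bring SETDB1 there, measured 1.50, 1.85 and 1.75 FPKM in NS control and 2.499, 2.28 and 2.38 FPKM in BCL9 KD. The groups did not overlap, and the ratio of the means was 1.40. The log2 fold change was 0.39 ± 0.11 (SE), with an adjusted p of 0.0730, and 0.33 without NS control replicate 1. It was called by voom, at an adjusted p of 0.0360. ZNF837 had 0.954, 0.881 and 0.570 FPKM in NS control and 1.06, 1.14 and 1.35 FPKM in BCL9 KD, on 18 to 64 reads a sample, with an adjusted p of 0.195. The most abundant genes of the cluster had log2 fold changes of 0.12 ± 0.13 (SE) for ZNF581 and −0.18 ± 0.11 (SE) for ZNF787. These depended on single samples, running from 0.038 to 0.25 and from −0.24 to −0.07 as each was left out, with 0.25 and −0.07 without NS control replicate 1.

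On the lower side of cluster I, ZNF264 and ZNF805 lie next to each other in the member list and were both lower in every BCL9 KD sample than in any control sample. ZNF264 measured 3.25, 3.56 and 3.20 FPKM in NS control and 2.88, 2.46 and 2.53 FPKM in BCL9 KD, with a log2 fold change of −0.30 ± 0.10 (SE) and an adjusted p of 0.105. ZNF805 measured 2.41, 2.06 and 2.53 FPKM in NS control and 1.88, 1.27 and 1.67 FPKM in BCL9 KD, with a log2 fold change of −0.43 ± 0.14 (SE) and an adjusted p of 0.112. Neither passed the test, and neither overlaps another gene of the table. Without NS control replicate 1 their log2 fold changes were −0.31 and −0.41. ZNF460, the next member along the chromosome, had the lowest log2 fold change of all members in the fit of all samples, −0.44 ± 0.15 (SE), with 3.00, 3.46 and 3.65 FPKM in NS control and 3.00, 2.17 and 1.99 FPKM in BCL9 KD. NS control replicate 1 and BCL9 KD replicate 1 nearly coincided at 3.00 FPKM, so its groups overlapped, and its adjusted p was 0.120. It falls outside the naming rule and was added after its values were seen.

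ZNF587B measured 3.98, 4.54 and 4.20 FPKM in NS control and 3.46, 3.35 and 3.21 FPKM in BCL9 KD. The groups did not overlap, and the log2 fold change was −0.30 ± 0.08 (SE), with an adjusted p of 0.0790 and of 0.0463 after the GC correction. It overlaps 3 other genes, ZNF586 among them. ZNF324 had 2.95, 2.91 and 2.60 FPKM in NS control and 1.88, 2.08 and 2.34 FPKM in BCL9 KD, with an adjusted p of 0.0937, and it overlaps ZNF446 and CTD-2619J13.23.

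Outside clusters F to I, ZNF526, ZNF101, ZNF557 and ZNF473 were the named members whose BCL9 KD values all lay below the NS control values, and none passed the test. ZNF57 in cluster A was the only named member there whose BCL9 KD values all lay above them, and it did not pass either. ZNF526, a scattered gene with no matching linker, measured 8.64, 7.71 and 7.18 FPKM in NS control and 6.23, 6.52 and 6.32 FPKM in BCL9 KD, with an adjusted p of 0.0979. ZNF101, the only such member of cluster D, measured 2.07, 2.13 and 1.86 FPKM in NS control and 1.57, 1.57 and 1.64 FPKM in BCL9 KD, with an adjusted p of 0.144. ZNF557 in cluster B and ZNF473, whose protein takes part in the processing of histone pre-mRNA, had log2 fold changes of −0.26 ± 0.12 and −0.19 ± 0.10 (SE). ZNF121, abundant in cluster B, measured 6.55, 10.7 and 12.8 FPKM in NS control and 10.9, 8.11 and 9.52 FPKM in BCL9 KD, and the spread among its control samples covered all of the BCL9 KD values. Its log2 fold change was −0.03 with all samples and ran from −0.30 without NS control replicate 1 to 0.16 without NS control replicate 3. ZNF561 (−0.06) in the same cluster, ZNF627 (−0.06) and ZNF791 (0.15) in C, ZNF714 (−0.08) in D, ZNF57 (0.34) and ZNF77 (−0.25) in A, and ZNF30 (0.19) and ZNF792 (0.11) in E were the other abundant members of their clusters, and none passed the test. Their log2 fold changes depended on single samples, and as each was left out ZNF57 ran from 0.27 to 0.42, ZNF77 from −0.48 to −0.015 (−0.48 without NS control replicate 1), ZNF791 from 0.026 to 0.22 (the lowest without that sample) and ZNF792 from 0.0088 to 0.21. Those of ZNF561, ZNF627, ZNF714 and ZNF30 changed sign.

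The proteins that KRAB zinc finger proteins work through were also examined. Of 22 genes of the KRAB corepressor list, which holds TRIM28, SETDB1, heterochromatin proteins, the NuRD complex and DNA methylation factors, all 22 were tested and 1 was called, where 5.87% of all tested genes were. At an unadjusted p under 0.05 there were 9 (40.9%, against 27.5% of all tested genes and 30.2% of tested protein-coding genes). The list had a median level of 24.9 FPKM, against 4.65 FPKM over all tested genes, and the part of this in the share was not tested. The called gene was CHD3, a nucleosome remodeler of the NuRD complex that binds TRIM28. It measured 44.6, 41.8 and 35.9 FPKM in NS control and 31.0, 26.5 and 26.3 FPKM in BCL9 KD. Its log2 fold change was −0.54 ± 0.11 (SE), with an adjusted p of 0.0398. The call was lost without NS control replicate 1 (adjusted p 0.0562), NS control replicate 2 (0.154), BCL9 KD replicate 2 (0.180) or BCL9 KD replicate 3 (0.183), where its log2 fold change was −0.47, −0.52, −0.50 and −0.50. It was also lost with median-of-ratios scaling (0.0534), no filter on low values (0.103), no mean-variance trend (0.0642), the replicate block (0.0826) and 2 combined settings, 10 of 18 alternatives in all. TRIM28 itself was abundant, at 222, 201 and 176 FPKM in NS control and 168, 178 and 176 FPKM in BCL9 KD, so that the groups overlapped and the adjusted p was 0.241. Its log2 fold change was −0.19, and −0.11 without NS control replicate 1. With quantile normalization it was −0.36 and TRIM28 was called (adjusted p 0.0474). SETDB1 had a log2 fold change of −0.07 ± 0.09 (SE), which turned to 0.0057 without NS control replicate 2. MTA2, another NuRD subunit, had −0.34 with an adjusted p of 0.0633, and was called with quantile normalization (0.0374), voom (0.0462), the GC correction (0.0331) and without NS control replicate 3 (0.0390). DNMT1, the maintenance DNA methyltransferase, had −0.21 with an adjusted p of 0.134. Over the list, the groups did not overlap in 4 of 22 genes with higher values in BCL9 KD (17.8% over all tested genes) and in 7 of 22 with lower values (16.4% over all tested genes), and the median log2 fold change was 0.03 against 0.04 over all tested genes. With the GC correction 4 genes of the list were called, where 12.0% of all tested genes were. With all samples the widest difference of the list was in ATRX, a chromatin remodeler that works with DAXX, at 1.39, 2.89 and 5.51 FPKM in NS control and 7.06, 4.56 and 5.37 FPKM in BCL9 KD. Its control samples were far apart and the groups overlapped, with a log2 fold change of 0.85 ± 0.39 (SE) and of 0.43 without NS control replicate 1, where that of CHD3 was wider. It was 1.26 without NS control replicate 3, with an adjusted p of 0.0441.

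The HUSH complex silences transposable elements together with SETDB1. All 4 genes of its list, FAM208A, MPHOSPH8, PPHLN1 and the partner gene MORC2, were tested and none was called by limma. None was under an unadjusted p of 0.05 and none was called by voom. Over all tested genes these shares were 5.87%, 27.5% and 10.2%, so few or no calls among 4 genes are near the background. FAM208A, the gene of its subunit TASOR, had the widest difference with all samples, a log2 fold change of 0.42 that was 0.13 without NS control replicate 1 and 0.65 without NS control replicate 3 (adjusted p 0.0928). The difference of MPHOSPH8, another gene of the complex, was wider without NS control replicate 1, at −0.23 (adjusted p 0.129) against −0.03 with all samples, and it was at 0.09 without NS control replicate 3. Of 22 zinc finger genes of chromosome 19 with other names, 7 were tested and 1 was called, which like the CHD3 call is read against 5.87% of all tested genes. This was KLF2, which measured 2.77, 2.28 and 2.18 FPKM in NS control and 0.785, 1.32 and 1.39 FPKM in BCL9 KD. KLF2, a transcription factor known from quiescence and blood vessel biology, fell by 0.82 ± 0.18 (SE) on the log2 scale, with an adjusted p of 0.0473 and of 0.0761 without NS control replicate 1. Leaving out any of the other 5 samples but NS control replicate 3 also ended its call, with adjusted p-values of 0.155 without NS control replicate 2 and of 0.0562, 0.160 and 0.153 without BCL9 KD replicate 1, 2 or 3. Over these 5 fits its log2 fold change ran from −0.92 to −0.64. The call also ended with an added value of 0.1 FPKM (0.0509), median-of-ratios scaling (0.0535), quantile normalization (0.0504), no filter (0.135), no trend (0.0605), the replicate block (0.124) and 2 combined settings, 13 of 18 alternatives in all. Among the remaining 6 were ZBTB7A (log2 fold change 0.08, from 0.008 to 0.16 as single samples were left out) and ZFP30 (0.42, adjusted p 0.158, and 0.27 without NS control replicate 1), a KRAB zinc finger gene whose groups did not overlap. The genes PEG3, ZIM2, ZIM3 and ZSCAN4 were listed at 0 in every sample.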

How the data were processed

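RNA was isolated by the authors from 6 flasks of DCIS.COM cells, and libraries were made with a NEB Next Ultra kit and sequenced as pairs by a provider. Reads were aligned by the authors with STAR and counted per gene with HTSeq 0.6.1. The deposited values are FPKM, with gene length in bases (other units) beside them. The submitters' processing notes name hg38, and 244 of 244 matched members overlap their GRCh38.p14 RefSeq gene. The labels give 3 flasks a group and were followed, although the authors' methods name fewer. Multiplied by gene length, FPKM gave whole reads within 0.1 for 100% of values, from which the depths were taken. Reads carry no molecular identifiers, and p-values measure only the spread between flasks.

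Differences were tested with limma 3.58.1 (R 4.3.3, with a trend) on log2(FPKM + 0.5). The 13745 genes averaging at least 0.5 FPKM were fitted, with Benjamini-Hochberg adjustment at 0.05. The added 0.5 understates changes of low genes. The authors used DESeq2, which needs counts. GC content is the mean over a gene's GENCODE transcripts (GRCh37), and the GC correction is a loess curve with a span of 0.3 in each sample. The fit was tested on simulated data, whose changes were made larger than any in the members after a first run, with changes about as large as the largest of the members, recovered few of them. Changes of the members' size may therefore be missed at 3 samples a group. Named genes are the 8 members highest and the 8 lowest in log2 fold change whose groups did not overlap, called members, the 5 most abundant, the 2 most abundant in each cluster, and genes of the partner lists. Members, lists and tests were chosen with earlier results of these data known. Alternatives were other added values, filters, scalings, voom, a replicate block, GC correction and leaving out each sample. Other tools were numpy 2.4.6, matplotlib 3.10.9, pandas 2.3.3 and scipy 1.17.1, run in Python 3.11.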

Additional observations from a re-analysis of the deposited data

How the results depend on the processing

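The number of members called, 1 with all 6 samples beside 807 of all tested genes, was 0 with no filter on low values (142 of all genes), 0 with no mean-variance trend (332), 2 with quantile normalization (1083), 2 with the GC correction (1650) and 3 with voom (1400). Where it was 0, members under an unadjusted p of 0.05 numbered 16 with no filter (9.70%, against 14.3% of all genes) and 21 with no trend (18.4%, against 26.5%). Leaving out each sample in turn gave between 0 and 5 members. The 5, without NS control replicate 3, were ZNF614, ZNF226, ZNF112, ZNF567 and ZNF146, beside 1712 of all genes. No member was called without NS control replicate 2, BCL9 KD replicate 2 or BCL9 KD replicate 3, where 12, 13 and 5 of all genes were called and 8, 8 and 7 members had an unadjusted p under 0.05 (7.02%, 7.02% and 6.14%, against 19.1%, 17.5% and 17.0% of all genes). None was called without BCL9 KD replicate 1 either, where 736 of all genes were called and 13 members had an unadjusted p under 0.05 (11.4%, against 25.5%). The cause was not tested. ZNF226 kept its direction in all 18 alternatives and lost its call in 8, with adjusted p-values from 0.0199 (voom) to 0.197. Of 45 genes that were run, the named ones with values, of which 2 fell below the filter of 1 FPKM, 37 kept their direction in each alternative fitted, and the other 8 changed sign when a sample was left out, where their log2 fold changes ran from −0.297 to 0.162 (ZNF121), −0.132 to 0.0057 (ZNF561), −0.111 to 0.0048 (ZNF627), −0.178 to 0.0141 (ZNF714), −0.117 to 0.0057 (SETDB1), −0.233 to 0.0902 (MPHOSPH8, with 0.0430 and 0.0029 without NS control replicate 2 and BCL9 KD replicate 3), −0.0414 to 0.316 (ZNF30) and −0.0020 to 0.124 (ZNF45). With the GC correction and NS control replicate 1 left out, an alternative chosen after seeing the data, 1 member and 980 of all genes were called and ZNF30 was at −0.0321. A gap of 0.5 Mb between members gave 10 clusters and a gap of 2 Mb gave 6, in place of 9.

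With the replicate block, 0 members and 0 of all tested genes were called, and 12 members had an unadjusted p under 0.05 (10.5%, against 23.5%). The block combined with the GC correction called 0 members and 154 of all tested genes, again with 12 members under that p (10.5%, against 26.4%). Same-numbered samples had deviations from the means of their groups that correlated at −0.147, −0.0884 and −0.0029 across genes, so the numbers were not taken to pair the samples. The tested members had a median of 1.68 FPKM on 3 samples a group, and a member that missed the threshold is not shown to be unchanged.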
